A study of Mus musculus with 10 samples.

Results

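Glycolysis and hypoxia response genes were followed in mouse keratinocytes labelled as knockouts of RhoA, a GTPase that switches on actin contraction and stress fibre formation. The set was defined by a list of 35 gene symbols: the enzymes that turn glucose into lactate, glucose and lactate transporters, regulators of the pathway, other known targets of the hypoxia-inducible factor, and Hif1a itself. Members were the probe sets that the platform annotation gives to exactly 1 of these symbols. There were 66 such probe sets for 31 genes, out of 45037 probe sets and 18193 named genes on the array. Gapdh and Bnip3l were read only by probe sets that also carry other symbols (3 each), and no probe set carried Gpi1 or Eno1, so these 4 symbols have no value here.

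The RhoA-KO cells carried homozygous floxed RhoA (RhoA fl/fl) with K5 cre, and the cells titled Wildtype carried a single floxed allele (RhoA fl/+) with the same K5 cre. The Wildtype cells are thus not free of the transgene, and their floxed allele can be lost too. The K5 promoter drives the recombinase in basal keratinocytes. The 10 samples were 3 cultured RhoA-KO, 3 cultured Wildtype, 2 fresh RhoA-KO and 2 fresh Wildtype arrays, from primary culture or from freshly isolated epidermal cells of the skin. The titles call them biological replicates. Age, animal numbers and time in culture are not given in the labels used here, so each p-value reflects only how far these particular arrays spread.

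Glycolysis splits glucose into pyruvate in the cytosol, and lactate dehydrogenase turns pyruvate into lactate. When oxygen is scarce the hypoxia-inducible factor is no longer hydroxylated by the prolyl hydroxylases of the Egln family, escapes degradation, and raises transcription of nearly every glycolytic enzyme and of genes for survival, pH control and vessel growth. Its alpha subunit, the product of Hif1a, is regulated mainly as a protein, so the level of its mRNA says little about its activity. Epidermis has no blood vessels of its own, and its cells are known to keep some of this programme active.

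Signals are the authors' linear intensities, 1 per probe set and array. The 2 conditions lie on different scales: the array median was 7.75 to 8 units in culture and 64.1 to 64.8 units in fresh cells, and 53.9% to 54.3% of cultured values, against 0.102% to 0.140% of fresh ones, lay below 10 units. Levels are therefore compared within a condition only, and a group whose signals all lie below the median of their own array is called at the floor. Rhoa itself read 7628 to 8209 units in cultured RhoA-KO, against 9240.2 to 11249 in Wildtype, and 4398 and 4296 units in fresh RhoA-KO, against 3526 and 4059 in Wildtype, by its brightest probe set. It was thus lower in cultured but higher in fresh RhoA-KO cells, without overlap in either, and its second tested probe set ran the same way. No Rhoa difference passed the test (limma adjusted p = 0.156 in culture and 0.434 in fresh cells). Whether these probe sets lie in the floxed exons is not stated in the sources, so they do not check the genotype, and the directions for fresh cells rest on the labels. Of 7 basal keratinocyte markers, 6 lay above the array median on every cultured array and 7 on every fresh array. Of 7 fibroblast markers 1 did so in culture, and of 5 endothelial markers none did. In fresh cells the fibroblast markers summed to 518 and 1400 units in RhoA-KO and 372 and 349 in Wildtype. The largest differences were those of Dcn (137 and 1012 units in RhoA-KO, 102 and 62.6 in Wildtype) and Col3a1 (82.5 and 93.9 units in RhoA-KO, 22.9 and 21.4 in Wildtype). Col3a1 was at the floor in fresh Wildtype and passed the filter on low signals through the RhoA-KO arrays alone. Only a bound can be given for it, at least 1.36-fold higher in RhoA-KO. Pdgfrb overlapped between the groups (73.8 and 55.9 units in RhoA-KO, 68.6 and 71.4 in Wildtype). Summed suprabasal markers (6 genes) read 4235 to 6722 units in cultured RhoA-KO and 1449 to 1647 in cultured Wildtype cells, and 9 proliferation genes read 93996 to 99589.5 units in RhoA-KO and 114518 to 120494 in Wildtype. In fresh cells the suprabasal sums were 60605 and 61827 units in RhoA-KO and 54185 and 54417 in Wildtype, and the proliferation sums 15187 and 16491 units in RhoA-KO, above the 13143 and 10627 in Wildtype. Melanocyte markers (6 genes) summed to 426 to 1323 units in cultured RhoA-KO and 225 to 483 in Wildtype cells. Fresh RhoA-KO replicate 2 stood apart: 11 hair follicle markers summed to 41124 units there, against 1156 in RhoA-KO replicate 1 and 2182 and 1499 in Wildtype. On that array melanocyte markers summed to 4417 units, against 934 in RhoA-KO replicate 1 and 624 and 486 in Wildtype, and Langerhans and myeloid markers (7 genes) to 7235 units, against 15205 in RhoA-KO replicate 1 and 23035 and 18259 in Wildtype. The part of these cell types in the results below was not tested. Fewer cells of a type and less RNA per cell cannot be told apart in such bulk samples.

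In cultured RhoA-KO keratinocytes most of the set read below the Wildtype mean, but no member passed the test. The lowest values relative to Wildtype belonged to the glucose transporter Slc2a3, the mitophagy receptor Bnip3, the aldolase Aldoc, the peptide hormone Adm, the repressor Bhlhe40 and the prolyl hydroxylase Egln1, while Ddit4, an inhibitor of mTOR signalling, read higher. Of the 31 genes 24 were lower and 7 higher, with a median log2 difference of -0.18, RhoA-KO minus Wildtype, beside -0.0068 over all probe sets tested. The 24 include Car9, which was not tested for low signal. Of those tested, 23 were lower and 7 higher. Over all genes named, each by its brightest probe set, 53.1% were lower. Of the 31, 30 passed the filter on low signals, and none passed the test over all probe sets (limma, Benjamini-Hochberg adjusted p under 0.05), where 0.273% of all probe sets did, 0.0926% lower and 0.181% higher. At an unadjusted p under 0.05 there were 9 lower and 0 higher members, beside 8.49% lower and 7.16% higher among all probe sets. That count was 3 without Wildtype replicate 2 and 5 without RhoA-KO replicate 1. The groups did not overlap for 9 members lower (12.2% of all probe sets) and 1 higher (10.1%). Both counts of 9 include Slc2a3, which was at the floor in RhoA-KO and was tested through the Wildtype arrays alone.

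Among the 12 glycolytic enzymes measured in culture, 10 were lower in RhoA-KO cells and 2, the hexokinase Hk2 and the muscle phosphofructokinase Pfkm, were higher, with a median of -0.16. Most of the pathway is among the brightest signals on these arrays. Tpi1, which interconverts the triose phosphates, read 15651, 20232 and 20045 units in cultured RhoA-KO cells, against 23677, 23045 and 22591 in Wildtype (log2 difference -0.32, SE 0.11, n = 3 per group, limma adjusted p = 0.252). All RhoA-KO arrays lay below all Wildtype arrays, RhoA-KO replicate 1 by far the most, and both other Tpi1 probe sets gave -0.38 and -0.34. Pgam1, the phosphoglycerate mutase that follows Pgk1, read 22973, 27703 and 28979 units in RhoA-KO, against 30233, 33646 and 32969 in Wildtype (-0.29, SE 0.10, adjusted p = 0.260), again without overlap.

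Pgk1, the first enzyme of the pathway to make ATP, read 23998, 25866 and 26049 units in cultured RhoA-KO and 27099.8, 28455 and 27318 in Wildtype cells (-0.13, SE 0.05, limma adjusted p = 0.289). Its other 2 probe sets read 0.00 and -0.03, so the difference was not shared within the gene. Ldha, which makes lactate, read 27067, 27873 and 29393 units in RhoA-KO and 31241, 31859.9 and 29866 in Wildtype (-0.14, SE 0.05, adjusted p = 0.257). The platelet phosphofructokinase Pfkp read 2068, 2770.4 and 2179 units in RhoA-KO and 3793, 2983 and 2702 in Wildtype (-0.43, SE 0.17, adjusted p = 0.304), and RhoA-KO replicate 2 overlapped the lowest Wildtype array. None of these differences passed the test.

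Aldoc, a minor aldolase next to Aldoa, differed more, but at a low signal. It read 31.8, 81.0 and 30.6 units in cultured RhoA-KO cells, against 88.7, 116 and 94.2 in Wildtype (-1.21, SE 0.40, limma adjusted p = 0.249). RhoA-KO replicate 2 lay close to the Wildtype arrays. The abundant Aldoa read 15335 to 19865 units in RhoA-KO and 20285 to 20522 in Wildtype (-0.18, SE 0.10, adjusted p = 0.462). Without RhoA-KO replicate 1 the differences were -0.059 for Aldoa, -0.20 for Tpi1 and -0.19 for Pgam1. The remaining enzymes, Hk1, Hk2, Pfkl, Pfkm and Pkm, lay between -0.25 (Hk1) and 0.21 (Hk2), with overlapping groups. Hk2, which commits glucose to the cell, read 2888, 2419 and 2365 units in RhoA-KO and 1904, 2394 and 2366 in Wildtype, and its difference was 0.10 without Wildtype replicate 1.

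Transporters and regulators held the largest difference of the set. Slc2a3, a high-affinity glucose transporter, read 7.38, 7.01 and 7.72 units in cultured RhoA-KO cells, against 200.1, 61.2 and 57.7 in Wildtype. All 3 RhoA-KO arrays were at the floor, so only a bound can be given. By this brightest probe set the signal was at least 11.4-fold lower in RhoA-KO, with the array median in place of the RhoA-KO signals. It passed the filter through the Wildtype arrays alone. The fitted log2 difference of -3.60 (SE 0.49, limma adjusted p = 0.0681) used these floor signals as deposited, so its size and p rest on floor values. A second Slc2a3 probe set read 5.18, 5.36 and 4.51 units in RhoA-KO and 34.9, 10.3 and 5.95 in Wildtype. Its bound was only 1.65-fold, and the other 2 probe sets lay at the floor in both groups. Slc2a1, the main glucose transporter of keratinocytes, was far brighter, at 27751, 31205 and 28230.0 units in RhoA-KO and 37344, 32821 and 27836 in Wildtype, with overlapping groups (-0.16, SE 0.11, adjusted p = 0.546).

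Slc16a3, which exports lactate, read 168 to 451 units in cultured RhoA-KO and 300.2 to 833 in Wildtype. The kinase gene Pfkfb3 lay at -0.11 and Pfkfb4 at 0.39, both with overlapping groups; their products set the level of a strong activator of phosphofructokinase. Pdk1, whose product keeps pyruvate out of the mitochondrion, read 1916, 2961 and 2492 units in RhoA-KO and 3062, 3607 and 2800.2 in Wildtype by its brightest probe set (-0.38, SE 0.18, limma adjusted p = 0.375), and -0.21 without RhoA-KO replicate 1. Of its 3 dimmer probe sets 1 was at the floor in both groups, and the other 2, given after their values were seen, did not overlap between them. The first read 381, 576 and 517 units in RhoA-KO and 930.0, 775 and 848 in Wildtype (-0.81, adjusted p = 0.137), and the second 153, 274 and 231 in RhoA-KO and 506, 348 and 334 in Wildtype (-0.87, adjusted p = 0.230).

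**Figure D1:**
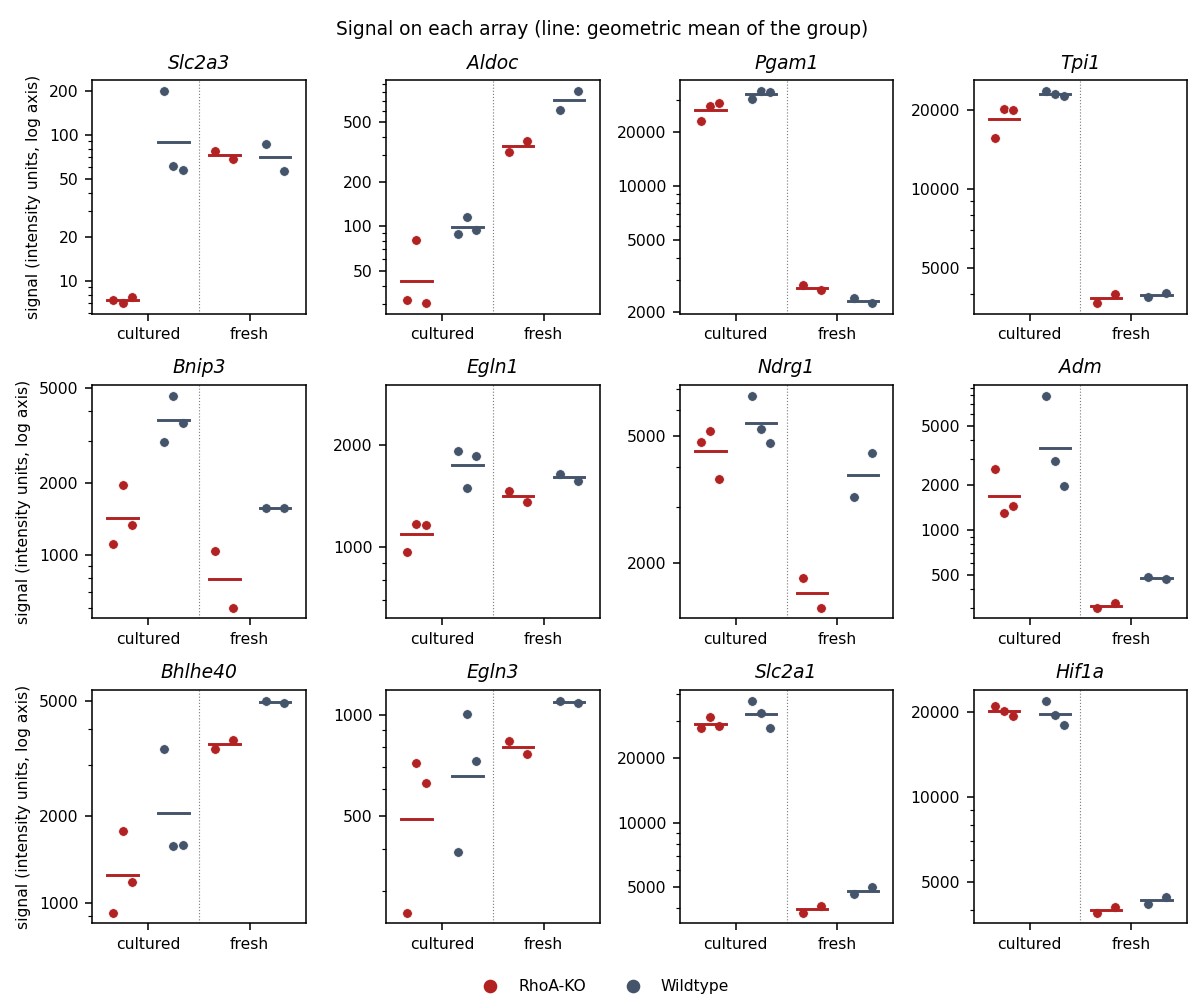
Signal of 12 members on each array, in intensity units on a log axis, with RhoA-KO (red) left of Wildtype (grey-blue) in cultured and in fresh cells, and a line at the geometric mean of each group. Slc2a3 lies at 7.01 to 7.72 units on all 3 cultured RhoA-KO arrays, while Hif1a overlaps between the cultured groups, and the scales of cultured and fresh arrays cannot be compared.

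Of the 12 other hypoxia targets with a probe set, 9 were lower and 3 higher in cultured RhoA-KO cells, with a median of -0.36. Car9, which was not tested for low signal, is among the 9 and in the median. Of the 11 tested, 8 were lower. Bnip3, whose product marks mitochondria for removal, read 1113, 1969.8 and 1326 units in RhoA-KO, against 2969.9, 4641 and 3549 in Wildtype. Every RhoA-KO array lay below every Wildtype array, and the mean level was 39.0% of Wildtype (-1.36, SE 0.26, 95% interval -1.99 to -0.72, limma adjusted p = 0.113). Egln1, the main oxygen sensor among the prolyl hydroxylases, read 966, 1167 and 1162 units in RhoA-KO and 1910.5, 1494 and 1845 in Wildtype (-0.67, SE 0.13, adjusted p = 0.118), also without overlap. Its other probe set gave 602, 681 and 707 units in RhoA-KO and 1136, 856 and 933 in Wildtype (-0.55, adjusted p = 0.162).

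For several hypoxia targets the cultured groups overlapped, with wide spread between replicates. Adm, which encodes the vasodilator adrenomedullin, read 2569.9, 1303 and 1451 units in RhoA-KO and 7944, 2903 and 1959 in Wildtype (-1.07, SE 0.56, limma adjusted p = 0.409). Without Wildtype replicate 1, by far the highest, its log2 difference was -0.49. Bhlhe40, a transcriptional repressor, read 924, 1777 and 1179 units in RhoA-KO and 3400.4, 1569 and 1585 in Wildtype (-0.71, SE 0.38, adjusted p = 0.426), and the difference was -0.34 without the same Wildtype array. Ndrg1, a differentiation and stress gene, read 4781, 5189 and 3656 units in RhoA-KO and 6669.7, 5245 and 4734 in Wildtype (-0.29, SE 0.18, adjusted p = 0.485), or -0.15 without it. Egln3, a prolyl hydroxylase that the factor itself induces, read 259, 721 and 627 units in RhoA-KO and 392, 1001 and 731 in Wildtype (-0.43, SE 0.51, adjusted p = 0.721), and 0.03 without RhoA-KO replicate 1.

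Ddit4 ran the other way, at 5908, 8349 and 6787 units in cultured RhoA-KO and 1027, 4346 and 4110.1 in Wildtype (1.40, SE 0.58, limma adjusted p = 0.324). The groups did not overlap, and Wildtype replicate 1 was the lowest array, without which the difference was 0.72 (adjusted p = 0.145). Vegfa, the vascular growth factor gene that is often taken as a readout of this response, read 625, 692 and 568 units in RhoA-KO and 435, 589 and 661 in Wildtype (0.18, SE 0.18, adjusted p = 0.665). Car9, a carbonic anhydrase that is among the strictest markers of hypoxia in other tissues, lay at 4.31 to 4.37 units in RhoA-KO, at the floor, and at 4.40, 4.41 and 12.4 units in Wildtype, with a single array above its median, and was not tested. The collagen prolyl hydroxylase genes P4ha1 and P4ha2 and Ankrd37 lay between -0.11 (P4ha1) and 0.05 (P4ha2) with overlapping groups. Hif1a read 20907, 20140.3 and 19285 units in RhoA-KO and 21929, 19467 and 17901 in Wildtype, a log2 difference of 0.03 (SE 0.08, adjusted p = 0.903) with a 95% interval of -0.17 to 0.23.

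The promoters of the members with the smallest unadjusted p in culture that have a RefSeq entry are shown, to set the known binding core of the factor beside these genes, none of which passed the test. Each is the 250 bases before the annotated start in GRCm38.p6, read 5′ to 3′ along the gene's strand, and capitals mark the core, ACGTG or GCGTG on either strand. CACGTG holds a core on both strands and counts as 2.
Bnip3, chr7:138909507-138909756, minus strand: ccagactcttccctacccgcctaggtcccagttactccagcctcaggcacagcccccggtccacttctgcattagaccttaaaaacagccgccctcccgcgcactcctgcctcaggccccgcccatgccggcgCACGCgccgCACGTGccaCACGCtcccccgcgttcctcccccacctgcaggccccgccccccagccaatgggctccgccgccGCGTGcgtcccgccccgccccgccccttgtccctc
Egln1, chr8:124949255-124949504, minus strand: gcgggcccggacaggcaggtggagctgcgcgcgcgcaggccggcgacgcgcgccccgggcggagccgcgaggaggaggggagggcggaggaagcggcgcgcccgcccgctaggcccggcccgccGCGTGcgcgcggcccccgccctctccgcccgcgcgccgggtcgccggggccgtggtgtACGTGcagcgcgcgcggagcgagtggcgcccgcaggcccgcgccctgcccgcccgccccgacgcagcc
Aldoc, chr11:78322823-78323072, plus strand: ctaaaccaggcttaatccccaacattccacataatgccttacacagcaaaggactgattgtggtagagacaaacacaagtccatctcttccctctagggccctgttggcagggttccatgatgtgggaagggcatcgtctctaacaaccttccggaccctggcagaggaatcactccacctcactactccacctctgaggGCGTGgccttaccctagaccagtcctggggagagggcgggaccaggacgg
Tpi1, chr6:124814159-124814408, minus strand: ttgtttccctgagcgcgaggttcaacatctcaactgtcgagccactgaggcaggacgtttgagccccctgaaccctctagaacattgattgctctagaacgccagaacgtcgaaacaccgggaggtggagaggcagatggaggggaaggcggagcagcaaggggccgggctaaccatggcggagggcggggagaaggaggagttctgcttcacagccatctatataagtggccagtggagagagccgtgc
Bnip3 had 5 cores, Egln1 2, Aldoc 1 and Tpi1 0. A core stood in the first listed window of 25 of the 31 members with an entry (80.6%), and in 38.6% of all 27025 genes. These are not the 31 measured genes. Slc2a3, Ndrg1, Bhlhe40 and Bnip3l have no entry, while Gapdh, Gpi1 and Eno1 have one but no signal. Windows of members were richer in G and C, with a median of 62.8% against 52.0% over all genes, and both cores are themselves rich in them. A core was found for 10 of 15 glycolytic enzymes, among them Gapdh and Eno1, which have no signal here, and for 9 of 10 other hypoxia targets. A match is no evidence of binding, and a window without these letters says nothing about the factor.

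In freshly isolated cells no member passed the test. Of the 12 enzymes, 7 were higher and 5 lower in RhoA-KO, with a median of 0.02, and 9 of 12 other hypoxia targets were lower, with a median of -0.28. The difference between these groups of genes was not tested. The median over all probe sets tested was -3.4e-04. The lowest values relative to Wildtype were those of Ndrg1, Aldoc, Bnip3 and Adm. Over the whole set 20 of 31 genes were lower and 11 higher, beside 46.0% lower among all genes named, and 29 passed the filter. Of those 29, 19 were lower and 10 higher. No probe set passed the test in fresh cells (limma, 0% of 22893 tested), so no member did, while 12.9% of all had an unadjusted p under 0.05. At an unadjusted p under 0.05 there were 8 lower members and 1 higher, beside 6.89% lower and 6.01% higher among all probe sets. The count of lower members was 5 without Wildtype replicate 2, and 8 without RhoA-KO replicate 2, the array with the hair follicle transcripts. With 2 arrays a group, 15 members were lower and 6 higher without overlap, beside 23.5% of all probe sets in each direction.

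Ndrg1 read 1803 and 1452 units in fresh RhoA-KO cells, against 3214 and 4429.7 in Wildtype, or 42.9% of the Wildtype level (-1.22, SE 0.19, n = 2 per group, limma adjusted p = 0.244). Its other 4 probe sets gave -1.08, -1.05, -0.77 and -1.06, and none of the 5 overlapped between the groups. The difference was -1.07 without RhoA-KO replicate 2. Bnip3 read 1040.2 and 599 units in RhoA-KO and 1573 and 1566 in Wildtype (-0.99, SE 0.26, adjusted p = 0.303). Its lower value was on the array with the hair follicle transcripts, and the difference was -0.59 without it. Without RhoA-KO replicate 1 instead, the difference was -1.39 for Bnip3 (adjusted p = 0.00573) and -1.38 for Ndrg1 (adjusted p = 0.0194), and both passed. In that setting 945 probe sets passed, and the lone RhoA-KO array is assumed to vary as the Wildtype arrays do.

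Aldoc read 319 and 378 units in fresh RhoA-KO and 608 and 814 in Wildtype cells (-1.02, SE 0.18, limma adjusted p = 0.268), and -1.14 without RhoA-KO replicate 2. Adm read 300.4 and 323 units in RhoA-KO and 484 and 466 in Wildtype (-0.61, SE 0.12, adjusted p = 0.274), with -0.62 by its other probe set. Bhlhe40 read 3416 and 3644 units in RhoA-KO and 5007 and 4928 in Wildtype (-0.49, SE 0.07, adjusted p = 0.242). Egln3 read 835 and 766 units in RhoA-KO and 1101 and 1083 in Wildtype (-0.45, SE 0.10, adjusted p = 0.289), with -0.63 by its other probe set. In each of these genes the groups were apart, and the Wildtype replicates of Aldoc lay furthest from each other. Without RhoA-KO replicate 2 the differences were -0.66 (Adm), -0.54 (Bhlhe40) and -0.39 (Egln3).

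Slc2a1 read 3800.0 and 4083 units in fresh RhoA-KO and 4628 and 5015 in Wildtype cells (-0.29, SE 0.08, limma adjusted p = 0.312), and its other 2 probe sets gave -0.23 and -0.27. P4ha1, whose product hydroxylates prolines of collagen, read 471 and 487 units in RhoA-KO and 599 and 615 in Wildtype (-0.34, SE 0.11, adjusted p = 0.327). Vegfa read 174 and 170.0 units in RhoA-KO and 201 and 202 in Wildtype (-0.22, SE 0.12, adjusted p = 0.498). Egln1 read 1461 and 1356 units in RhoA-KO and 1638 and 1568 in Wildtype (-0.19, SE 0.09, adjusted p = 0.461), while its other probe set gave 0.13. Hif1a read 3911 and 4108 units in RhoA-KO and 4199 and 4443 in Wildtype (-0.11, SE 0.07, adjusted p = 0.581). Pdk1 lay at -0.26, -0.17 and -0.52 by its 3 tested probe sets.

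Several values were on the other side of 0. Pgam1 read 2801 and 2658 units in fresh RhoA-KO, against 2386 and 2239 in Wildtype (0.24, SE 0.08, limma adjusted p = 0.348). Hk2 gave the highest log2 difference of the set in fresh cells, with 478 and 571 units in RhoA-KO and 446 and 368 in Wildtype (0.37, SE 0.16, adjusted p = 0.413). Ddit4 read 3923 and 4212 units in RhoA-KO and 3653 and 3419 in Wildtype (0.20, SE 0.08, adjusted p = 0.389). The most abundant enzymes lay close to 0: Ldha read 5565 and 5589 units in RhoA-KO and 5428 and 5171 in Wildtype (0.07). Pgk1 read 3177 and 3229 units in RhoA-KO and 3189.7 and 2989 in Wildtype (0.05), and Tpi1 3691 and 4005 in RhoA-KO and 3888 and 4035 in Wildtype (-0.04). Pfkp read 2115 and 2069.8 units in RhoA-KO and 2138 and 2052 in Wildtype (-0.0019). Slc2a3 read 76.8 and 67.8 units in RhoA-KO and 86.3 and 56.5 in Wildtype, around the array median, and 3 of its 4 probe sets lay below the median on every fresh array. Slc16a3, at 38.5 to 52.6 units, and Car9, at 35.7 to 46.9, were at the floor in both fresh groups and were not tested. The other fresh members lay between -0.36 (Pfkfb3) and 0.22 (Pkm).

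**Figure D2:**
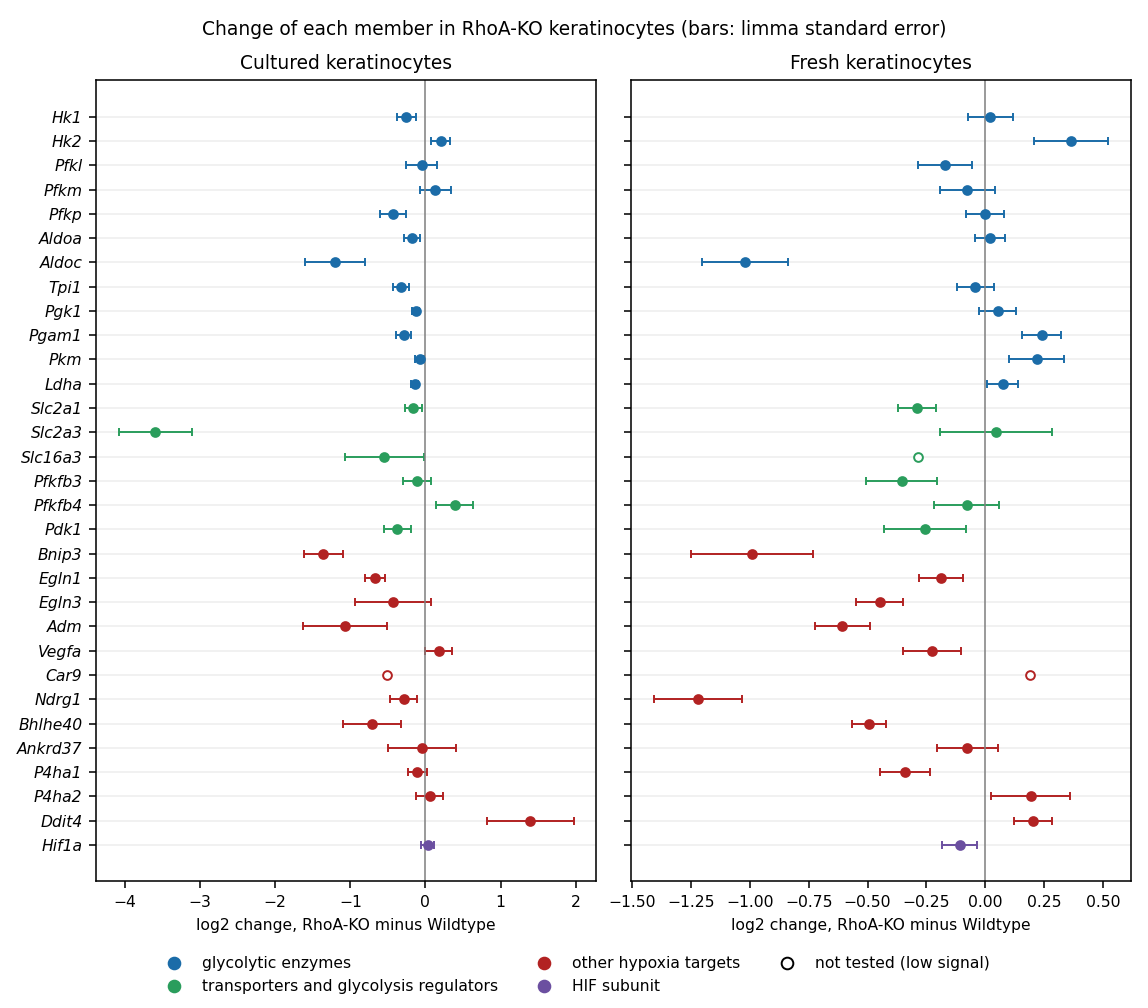
log2 difference, RhoA-KO minus Wildtype, of the 31 members with a probe set of their own, in cultured (left) and fresh cells (right, on a narrower axis), with limma's standard error as bars. Colours mark the role, and open circles mark members that were not tested for low signal. In fresh cells Aldoc, at -1.02, stands apart from the other enzymes, while 9 of 12 other hypoxia targets lie below 0.

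The differences between arrays labelled RhoA-KO and Wildtype, in culture and in fresh cells, were set against each other for the 29 members tested in both. The conditions lie on different intensity scales, and the part of this in differences between the effects was not tested. For 15 of the 29 members the RhoA-KO minus Wildtype difference pointed down in both conditions. The share of all probe sets that did so was not counted. The count therefore cannot show whether the members went the same way more often than other genes. Aldoc, Bnip3 and Egln1 were lower without overlap in both (3 of 29 members, beside 3.74% of all probe sets), and Aldoc and Bnip3 had an unadjusted p under 0.05 in both (2 of 29, beside 1.16%). A test of the difference between the effects, culture minus fresh, passed for 1 member, Slc2a3 (log2 -3.64, SE 0.54, adjusted p = 0.0279 from both limma fits), beside 0.879% of all probe sets, 0.517% with a lower and 0.362% with a higher effect in culture. Its cultured RhoA-KO signals were at the floor and it was tested in culture through the Wildtype arrays alone, so this difference, its SE and the call rest on floor values. Its fresh signals lay near the array median in both genotypes. The call was lost without Wildtype replicate 2 (adjusted p = 0.0506) or 3 (0.0680) in culture, without RhoA-KO replicate 1 (0.0677), 2 (0.0742) or 3 (0.0870) in culture, without fresh Wildtype replicate 2 (0.122), and with 16 units added to every signal (-2.23, adjusted p = 0.0733).

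At an unadjusted p under 0.05 the effects differed for 6 of 29 members, beside 17.8% of all probe sets, 10.5% lower and 7.3% higher. Apart from Slc2a3 these were Pgam1 (-0.53, SE 0.13, adjusted p = 0.0824 from both limma fits), Ndrg1 (0.93, SE 0.26, adjusted p = 0.106), Egln1 (-0.48, SE 0.16, adjusted p = 0.164), Ldha (-0.22, SE 0.08, adjusted p = 0.214) and Pfkp (-0.43, SE 0.19, adjusted p = 0.278). The dimmer Pfkp probe sets gave -0.50 and 0.44, so they did not share a direction. Pgam1 was lower in cultured and higher in fresh RhoA-KO cells, each without overlap. Ndrg1 lay further below Wildtype in fresh than in cultured RhoA-KO cells. Its dimmer probe sets gave smaller differences in the same direction, at 0.56, 0.60, 0.34 and 0.77 (adjusted p of 0.215 to 0.546 from both limma fits). Without fresh RhoA-KO replicate 1 the Ndrg1 difference by the brightest probe set was 1.09, with only the array with the hair follicle transcripts left in that group.

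The members' extremes in culture fell unevenly over the arrays. RhoA-KO replicate 1 was the lowest of the 6 arrays for 17 of 30 members tested, as it was for 21.8% of all probe sets tested. Wildtype replicate 2 was the highest for 12 of 30, as it was for 16.5% of all. The median deviation of the 12 glycolytic enzymes from their Wildtype mean was -0.42, -0.10 and -0.08 in RhoA-KO replicates 1, 2 and 3, and -0.02 to 0.04 in Wildtype. For the other hypoxia targets it was -0.34, -0.13 and -0.37 in RhoA-KO, against -0.15, 0.14 and 0.02 in Wildtype, so RhoA-KO replicate 2 and Wildtype replicate 1 lay close together. In fresh cells the same medians were 0.03 and 0.02 in RhoA-KO for the enzymes, against 0.03 and -0.03 in Wildtype, and -0.29 and -0.28 in RhoA-KO for the other hypoxia targets, against 0.01 and -0.01 in Wildtype.

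**Figure D3:**
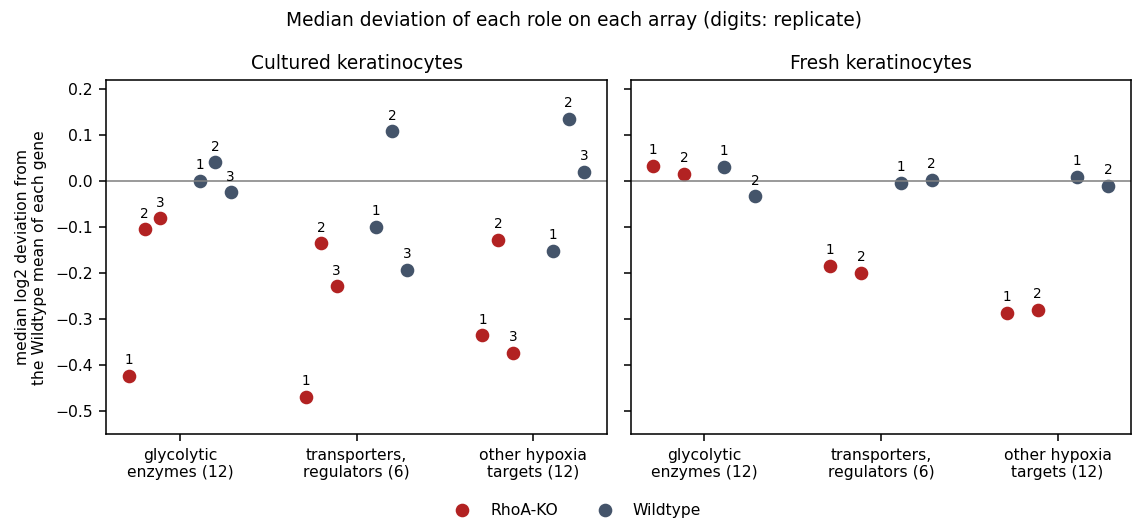
Median over the genes of a role of the log2 deviation from the Wildtype mean, for each array (digits are replicate numbers), with RhoA-KO in red left of Wildtype in grey-blue. Cultured RhoA-KO replicate 1 lies lowest for the enzymes, at -0.42, and both fresh RhoA-KO arrays lie near -0.28 for the other hypoxia targets but near 0.02 for the enzymes.

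Several probe sets for the same gene gave a check within the array. Of 17 members with more than 1 tested probe set in culture, 14 had the same direction in all of them, the exceptions being P4ha1, Pfkfb3 and Pgk1. In fresh cells it was 9 of 14, the exceptions being Aldoa, Egln1, Pfkl, Pfkp and Pgk1.

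How abundant the set was in each condition could be described only by rank within an array. In Wildtype cells Pgam1, Slc2a1, Ldha, Pgk1, Pkm, Tpi1, Aldoa and Hif1a lay in the upper 2% of the signals of cultured arrays, at mean percentiles of 98.7 (Hif1a) to 99.3 (Pgam1). The median percentile of the 12 glycolytic enzymes was 95.6 in culture and 93.6 in fresh cells, and that of the other hypoxia targets 85.4 and 86.9. Of the 31 members 18 ranked higher on all cultured than on all fresh Wildtype arrays and 10 lower, beside 44.5% and 46.2% of all genes. Slc16a3 had a percentile of 77.7 in culture and was at the floor in fresh cells, so its gap has no exact size. Aldoc stood at 66.5 in culture and 85.4 in fresh cells. Pkm, which makes pyruvate, stood at 99.0 and 91.6, and Bhlhe40 at 89.8 and 98.4.

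**Figure D4:**
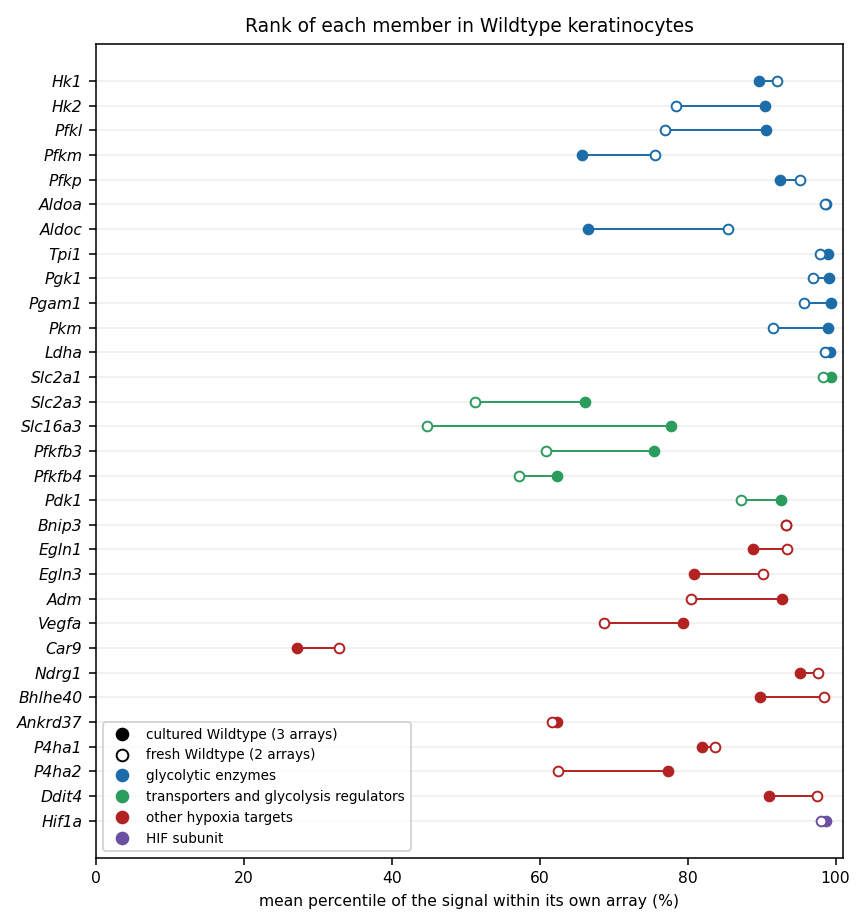
Mean percentile of each member's signal within its own array in Wildtype cells, cultured (filled, 3 arrays) and fresh (open, 2 arrays), coloured by role. Most glycolytic enzymes lie above 90 in culture, Slc16a3 lies at 77.7 in culture and below the array median in fresh cells, where its rank is that of the floor, and Car9 lies lowest in both.

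Other genes of the same pathways, from 3 lists of known pathway members, gave no call in either condition (limma, adjusted p under 0.05). Of 34 further genes of glucose and pyruvate metabolism 23 were tested in culture, with 5 lower and 0 higher at an unadjusted p under 0.05, beside 8.49% lower and 7.16% higher among all probe sets. They included Mpc1, a subunit of the mitochondrial pyruvate carrier (3386 ± 188 units in RhoA-KO and 4117 ± 217 in Wildtype, SD, n = 3 per group, log2 -0.28), and Gbe1, the glycogen branching enzyme (-0.49). In fresh cells 27 were tested, with 3 higher and 2 lower, beside 6.01% higher and 6.89% lower among all. The lactate transporter Slc16a1 read 585 ± 79.2 units in fresh RhoA-KO and 328 ± 65.4 in Wildtype (0.84, adjusted p = 0.287, SD, n = 2 per group), and Pdk4, an inhibitor of pyruvate oxidation, 168 ± 2.98 in RhoA-KO and 278 ± 68.1 in Wildtype (-0.71).

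Of 17 regulators of the factor 16 were tested in culture, with 3 lower and 0 higher at the same p (8.49% and 7.16% among all). Epas1, the gene of the second alpha subunit, read 81.4 ± 18.3 units in RhoA-KO and 136 ± 23.8 in Wildtype (-0.75, SD, n = 3 per group, limma adjusted p = 0.201), and the third prolyl hydroxylase gene Egln2 lay at -0.29. In fresh cells all 17 were tested, with 1 higher and 1 lower, near the shares of 6.01% and 6.89% among all. The lower was Cited2, which competes with the factor for its coactivator, at 1237 ± 134 units in RhoA-KO and 1915 ± 18.3 in Wildtype (-0.63, SD, n = 2 per group, adjusted p = 0.249).

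Of 35 further hypoxia targets 28 were tested in each condition. In culture 5 were higher and 5 lower at the same p, beside 7.16% higher and 8.49% lower among all probe sets. The endothelin gene Edn1 read 46.9 ± 20.8 units in RhoA-KO and 342 ± 137 in Wildtype (-2.87, SD, n = 3 per group, limma adjusted p = 0.0833), while the histone demethylase gene Kdm5b read 1308 ± 23.9 units in RhoA-KO and 748 ± 106 in Wildtype (0.82, adjusted p = 0.0822) and the collagen-modifying enzyme gene Plod2 521 ± 247 in RhoA-KO and 68.4 ± 49.7 in Wildtype (3.17, adjusted p = 0.166). In fresh cells 7 were higher and 3 lower, beside 6.01% and 6.89%. Among them were Edn1 (202 ± 25.4 units in RhoA-KO and 317 ± 14.2 in Wildtype, -0.66) and Fam162a, a gene for a mitochondrial protein (5782 ± 427 units in RhoA-KO and 4199 ± 372 in Wildtype, 0.46).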

How the data were processed

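RNA of 10 samples was hybridised to Affymetrix Mouse Genome 430 2.0 arrays, per the labels. The authors deposited 1 linear intensity per probe set and array. The submitters' processing notes name MAS5; its settings are not stated in them. Symbols came from the platform annotation, updated by Entrez identifier through RefSeq (GRCm38.p6): 34945 of 45037 probe sets had 1 symbol, 932 several and 9160 none. The probe set with the highest mean log2 intensity stood for a gene.

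Intensities were taken to log2. A probe set was tested where at least 2 arrays of a condition read it above their median, with limma 3.58.1 in R 4.3.3 (lmFit, eBayes with trend, 2-sided, Benjamini-Hochberg at 0.05 over all probe sets), in culture and in fresh cells apart. Both effects were compared by their moderated standard errors, with Welch-Satterthwaite degrees of freedom. The number of arrays limits the precision. The procedure was tested on simulated data with changes placed only in probe sets brighter than the median, so this does not cover signals at the floor. Members and lists were chosen with earlier results of these data known, so no p is adjusted over them alone. Values on each array are given for members at an unadjusted p under 0.05 in a condition or for the difference, for Slc2a1, Slc2a3, Hif1a, Ldha, Pgk1, Vegfa and Car9, and for the highest and lowest log2 difference of each condition; of the other pathway lists, at most 4 genes with the smallest p are named. Promoters are RefSeq windows. Alternatives were other filters, offsets, normalizations and fits, and each array left out.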

Additional observations from a re-analysis of the deposited data

Results flagged for a closer look

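For Slc2a3 a test of the difference between the RhoA-KO effects, culture minus fresh, passed (log2 -3.64, adjusted p = 0.0279 from both limma fits). Its cultured RhoA-KO signals lay at 7.01 to 7.72 units, at the floor of those arrays, against 57.7 to 200.1 in Wildtype, while its fresh signals lay at 67.8 to 76.8 units in RhoA-KO and 56.5 to 86.3 in Wildtype. It was tested in culture through the Wildtype arrays alone, so the size and the call rest on floor values. Its fresh signals lay near the array median in both genotypes, so the test cannot settle whether the effects differ. The call was lost in 6 of 10 leave-outs (adjusted p of 0.0506 to 0.122) and with 16 units added to every signal (adjusted p = 0.0733). Of its 4 probe sets only the brightest could be tested for this, since the other 3 lay below the array median on every fresh array.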

How the results depend on the processing

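No cause of a change with the processing was tested. In culture 62 probe sets were called, and 2 with no filter, 7 without trend, 128 with 75th percentile centring, 299 with array weights and 395 in 1 fit over all 10 arrays. The count of members called, 0, became 1 (Slc2a3) with 75th percentile centring and with array weights, and 3 (Slc2a3, Bnip3 and Egln1) in the 10-array fit. Leaving out each array gave 0 to 95 probe sets, 0 to 1 members called and 3 to 8 members lower at an unadjusted p under 0.05, beside 9. In fresh cells 0 probe sets were called at the outset; the 10-array fit called 393, 1 of them a member (Ndrg1), and left 5 lower at an unadjusted p under 0.05, beside 8. Leaving out each fresh array gave 0 to 945 probe sets, 0 to 2 members called and 5 to 8 lower. For the difference of effects 165 probe sets were called, 252 by the interaction term of the 10-array fit and 2 to 1302 with each array left out, with 0 to 2 members (2 without fresh RhoA-KO replicate 1). With 16 units added, 0 members were called. With the replicate number as a block, 17 probe sets and 1 member (Bnip3, adjusted p = 0.0491) were called in culture, and 289 probe sets and 2 members (Slc2a3 and Pgam1) for the difference. The numbers share no stated origin: deviations of same-numbered cultured arrays correlated at 0.32, 0.08 and 0.25, those of other pairs at -0.30 to 0.17, and RhoA-KO replicate 2 correlated best with Wildtype replicate 3. Fresh same-numbered arrays correlated at -0.05. Some directions turned. In culture, leaving out an array gave -0.81 to 0.027 for Egln3 and -0.040 to 0.11 for Hif1a. In fresh cells it gave -0.031 to 0.028 for Pfkp, -0.10 to 0.016 for Tpi1 and -0.26 to 0.35 for Slc2a3, Pfkp was 0.0047 with 75th percentile centring, and Pgk1 was -0.027 with the mean over its probe sets. For the difference of effects it gave -0.65 to 0.057 for Aldoc, -0.76 to 0.032 for Bnip3, -0.36 to 0.48 for Egln3, -0.90 to 0.11 for Adm and -0.47 to 0.15 for Bhlhe40, and Aldoc was 0.048 with 16 units added. Signals at or near the floor (Slc2a3, Car9 and, in fresh cells, Slc16a3) and the low signal of Aldoc in culture limit what can be read.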
